A study of Mus musculus with 30 samples.

Results

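Microglia of the embryonic day 17 (E17) brain were compared between offspring of dams given poly(I:C) (“MIA”, maternal immune activation) and offspring of dams given saline (“Saline”). The comparison was taken as the 3 E17 MIA against the 3 E17 Saline libraries, 6 of the 30 libraries of the series, across all 14225 transcripts listed. The mice were C57BL/6J. Poly(I:C), which mimics the double-stranded RNA of viruses, was injected into the pregnant dam in mid-gestation, about a week before the brains were taken, and the E17 groups had received no other agent. Microglia were pulled from whole brain with magnetic beads against CD11B, an integrin chain found on all myeloid cells. Each E17 library was 1 litter, its male and female brains pooled, so that the 3 libraries of a group are 3 litters and the spread between them is the spread between litters. *Xist* was at 102 to 127 TPM (transcript abundance corrected for length and scaled to 1 common total per library) and the summed Y-linked genes at 180.3 to 258 TPM in the 6 libraries, so every pool held brains of both sexes.

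Microglia are the resident macrophages of the brain. They descend from yolk sac progenitors that enter the neural tube before the blood-brain barrier closes, and they depend on the CSF1 receptor and on the transcription factor PU.1. In the late embryo they are rounded, dividing and phagocytic, and sit among newborn neurons, radial glia, vessels and the choroid plexus. Double-stranded RNA is sensed by TLR3 and by cytosolic helicases, which switch on type I interferon and inflammatory cytokine genes in the mother, and the litter is exposed through the placenta. The design asks whether microglia of these litters still differed in their RNA at E17.

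The data show 3 MIA litters that were not alike. E17 MIA 1 carried far more RNA of neurons and neural progenitors than any other E17 library, E17 MIA 3 carried far more RNA of the choroid plexus and was also the highest in vessel RNA, and E17 MIA 2 lay close to the Saline litters. In 326 transcripts (2.29%) each MIA library was lower than every Saline library. In 534 (3.75%) each was higher. Both shares were below the share expected in each direction where groups do not differ. The immune genes *Cd14*, *C3ar1*, *Cd80*, *Ccl2* and *Nlrp3* were among the 326. So were *Arih2* and *Fam83g*, which had smaller unadjusted p-values by limma than these immune genes. The gap in *Cd80* was narrow, with 26.4 TPM in E17 MIA 2 and 26.5 TPM in E17 Saline 2. Relative to microglial RNA, *Cd14* and *Ccl2* stayed without overlap and *C3ar1*, *Cd80* and *Nlrp3* overlapped. Across all transcripts, none passed the test after adjustment for 14225 transcripts.

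The 6 libraries had an estimated 11290000 to 12760000 reads on the listed transcripts, taken from the steps between low values, since the table gives TPM and no counts. Defining microglial transcripts were abundant in all 6, with *C1qc*, a subunit of the complement recogniser C1q, at 3986 to 7631 TPM and *Fcrls*, a microglial Fc receptor-like gene, at 2721 to 4875 TPM. The spread within E17 MIA was the widest of the 10 groups of the series. Its median standard deviation was 0.28 on the log2(TPM + 1) scale (n = 3), against 0.17 in E17 Saline (n = 3) and at most 0.24 in the other groups. The closest pair among the E17 libraries joined the conditions: E17 MIA 2 and E17 Saline 2 had r = 0.993 across transcripts, whereas E17 MIA 1 and E17 MIA 2 had r = 0.956. These correlations describe the libraries across transcripts, which are not independent replicates.

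Set against the range of the 3 Saline libraries, E17 MIA 1 lay above it in 55.7% of transcripts and within it in 24.7%. E17 MIA 3 lay above it in 40.6% and within it in 39.4%. E17 MIA 2 lay within it in 8538 transcripts, the majority, and above it in 15.6%. A stricter count took the transcripts in which 1 library differed from all 5 others by over 1 log2 unit. E17 MIA 1 was higher in 920 transcripts (6.47%), E17 MIA 3 in 41 (0.288%) and each of the other 4 libraries in 0 to 2. With libraries scaled by median ratios, the count was 657 for E17 MIA 1, 45 for E17 MIA 3 and 0 to 4 for the others.

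**Figure D1:**
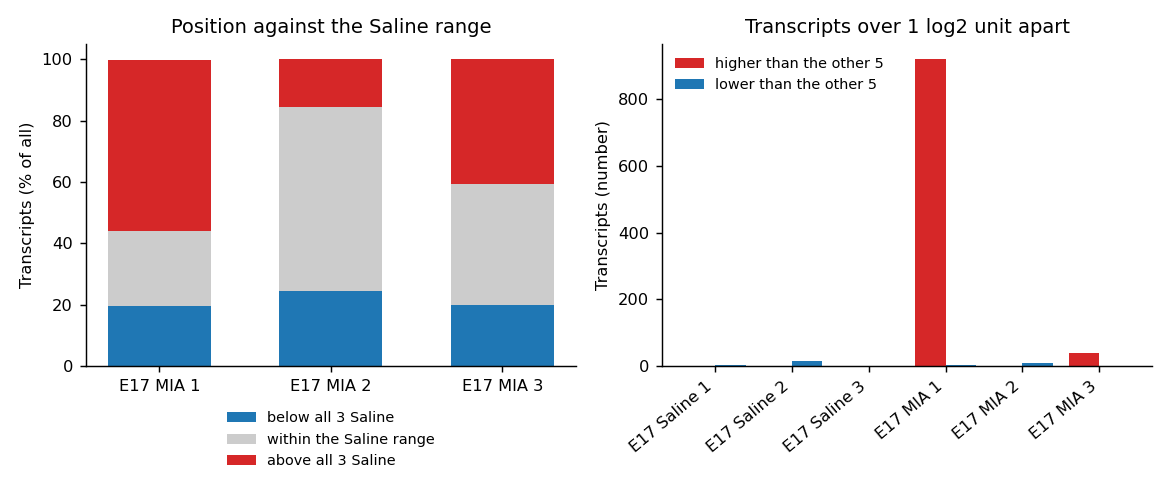
Left, the share of the 14225 transcripts in which each E17 MIA library lay below, within or above the range of the 3 E17 Saline libraries (stacked bars, percent). Right, the number of transcripts in which each E17 library was over 1 log2 unit higher (red) or lower (blue) than all 5 others on the log2(TPM + 1) scale. E17 MIA 1 stands out with 920 higher transcripts, E17 MIA 3 has 41, and the bar of E17 MIA 2 is mostly within the Saline range, with 15.6% above it.

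Among the transcripts that set E17 MIA 1 apart were those of newborn neurons and their progenitors. *Neurod1*, a proneural transcription factor of differentiating neurons, was at 10.2, 4.12 and 7.90 TPM in E17 Saline 1, 2 and 3 and at 54.1, 8.62 and 5.60 TPM in E17 MIA 1, 2 and 3. *Dlx1*, a homeobox factor of embryonic interneurons, was at 20.1, 8.65 and 18.1 TPM in Saline and 94.6, 9.92 and 5.95 TPM in MIA. In both genes E17 MIA 1 alone was high, and E17 MIA 3 lay near or below the Saline libraries.

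Of the 31 transcripts on a list of neuron markers, 28 were over 1 log2 unit higher in E17 MIA 1 than in all 5 other libraries, as were 11 of 14 neural progenitor transcripts and 0 of 23 microglia transcripts. The neuron list summed to 1090, 589 and 952 TPM in Saline and 3874, 680.2 and 709 TPM in MIA. The progenitor list summed to 1580, 758 and 1154 TPM in Saline and 4230, 902 and 1929 TPM in MIA. Both sums were thus high in E17 MIA 1, and progenitor RNA was also above the Saline range in E17 MIA 3. *Slc1a3*, the glutamate transporter of radial glia, was at 103, 49.5 and 74.1 TPM in Saline and 307, 61.6 and 133 TPM in MIA, and *Ptprz1*, a radial glia phosphatase, was at 42.0, 14.0 and 30.4 TPM in Saline and 136, 20.9 and 57.3 TPM in MIA. In bulk RNA of this kind, fewer cells of a type and less RNA per cell cannot be told apart.

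E17 MIA 3 was set apart by choroid plexus transcripts, 10 of 15 of which were over 1 log2 unit above all other E17 libraries. *Ttr*, the thyroxine carrier that choroid plexus epithelium secretes, was at 3057, 1395 and 2754 TPM in Saline and at 3507, 1332 and 12126 TPM in MIA. *Aqp1*, the water channel of this epithelium, was at 30.01, 15.5 and 30.2 TPM in Saline and 36.2, 13.7 and 125 TPM in MIA. *Sostdc1*, a secreted BMP and WNT antagonist, was at 20.8, 7.24 and 18.2 TPM in Saline and 27.5, 8.67 and 73.1 TPM in MIA. Within Saline each of these genes was lowest in E17 Saline 2, and E17 MIA 2 was near that level.

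The summed endothelial and pericyte transcripts were also highest in E17 MIA 3, at 1.54 times the next library. *Kcnj8*, a potassium channel of pericytes, was at 90.0, 32.7 and 42.9 TPM in Saline and 119.7, 59.5 and 153 TPM in MIA (log2 fold change 1.02, SE 0.45). *Rgs5*, a pericyte regulator of G protein signalling, was at 639, 224 and 333 TPM in Saline and 694, 353 and 993 TPM in MIA. Meningeal fibroblast transcripts were above Saline in both E17 MIA 1 and E17 MIA 3. *Col1a1*, the fibrillar collagen of these cells, was at 26.5, 22.5 and 19.6 TPM in Saline and 59.6, 24.9 and 39.6 TPM in MIA. The Saline and MIA values of each of these 3 genes overlapped, with E17 MIA 2 inside the Saline range.

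**Figure D2:**
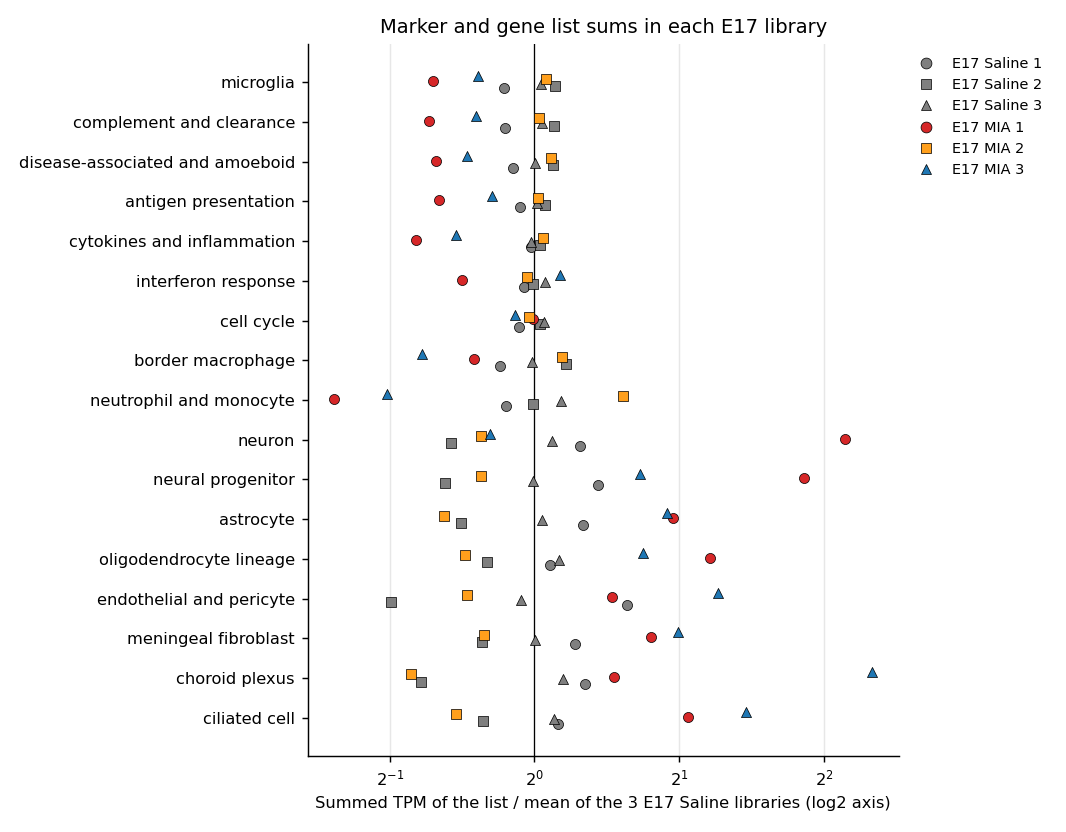
Summed TPM of each gene list in each E17 library, divided by the mean of the 3 Saline libraries (log2 axis, 1 point per library, grey for Saline). The neuron sum of E17 MIA 1 was 4.42 times the Saline mean, the choroid plexus sum of E17 MIA 3 was 5.03 times it, and E17 MIA 2 lies beside E17 Saline 2 in most lists.

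Microglial RNA moved the other way in the same libraries. The 23 transcripts of the microglia list summed to 41754, 53119 and 49721 TPM in Saline and to 29706, 50959.6 and 36864 TPM in MIA. *Spi1*, which encodes PU.1, was at 762, 955 and 849 TPM in Saline and at 488, 842 and 643 TPM in MIA (log2 fold change -0.41, SE 0.19). E17 MIA 1 and E17 MIA 3 were below every Saline library and E17 MIA 2 was inside their range. Because TPM values of a library share 1 fixed total, a rise of other RNA in a library lowers all microglial values of that library, and their parts in this difference cannot be told apart. The share of microglial TPM among purity markers of 5 cell types averaged 98.9% in Saline (SD 0.471) and 97.2% in MIA (SD 2.98), with 3 libraries each. The difference of -1.68 percentage points had p = 0.6 in a 2-sided exact permutation test, in which 3 against 3 libraries cannot give less than 0.1. It was 0.032 points without E17 MIA 1 and -0.54 points when the median of each cell type's markers was taken. Neuron markers made 5.41% of the marker TPM in E17 MIA 1 and 0.404% to 1.05% in the other 5. The neuron markers *Dcx* and *Reln* and the endothelial markers *Pecam1* and *Tek* were not among the listed transcripts. Neurons and endothelium were thus each represented by 3 of the study's 5 genes.

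With limma fitted to log2(TPM + 1) of all 30 libraries, 0 of 14225 transcripts had an adjusted p under 0.05 between E17 MIA and E17 Saline, the smallest being 0.724. At an unadjusted p under 0.05 there were 585 transcripts (4.11%), of which 406 (2.85%) were higher and 179 (1.26%) lower in MIA. At this threshold 5% of transcripts are expected where groups do not differ. The libraries did not overlap in 860 transcripts (6.05%), 534 higher (3.75%) and 326 lower (2.29%) in MIA. Where groups do not differ, 5% of transcripts are expected without overlap in each direction. The median of all log2 fold changes was 0.10 and not 0, which set the balance of the directions: with libraries scaled by median ratios, the median was 0.0017, and 239 transcripts were higher and 281 lower.

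The count depended on some of the litters in it. Without E17 MIA 1, 159 transcripts were under an unadjusted p of 0.05, 95 of them among the 585. Without E17 MIA 2, the litter most like Saline, the count was 3291. It was 595 without E17 MIA 3, 1083 without E17 Saline 1, 274 without E17 Saline 2 and 392 without E17 Saline 3. Without both E17 MIA 1 and E17 MIA 3 it was 201, with the spread of the lone E17 MIA 2 taken from the other groups. Of the 406 higher transcripts, E17 MIA 1 was the MIA library farthest from the Saline mean in 304 (74.9%). Of the 179 lower ones, it was the farthest in 129 (72.1%). The share over all transcripts was not counted. Over all transcripts the median absolute distance from the Saline mean was 0.35 log2 units in E17 MIA 1. It was 0.13 in E17 MIA 2 and 0.20 in E17 MIA 3, so these shares are not particular to the called transcripts. E17 MIA 1 was over 1 log2 unit above all other E17 libraries in 39 of the 406 (9.61%), against 6.47% over all transcripts. In 3 of the 6 fits that left out 1 library, 1 transcript passed adjustment, and it was a different one each time. These were *Arih2* without E17 Saline 2 (adjusted p = 0.0309), *Rspo2*, a secreted WNT agonist, without E17 MIA 2 (adjusted p = 0.00715), and *Ano9*, a membrane scramblase gene, without E17 MIA 3 (adjusted p = 0.0167). *Rspo2* and *Ano9* are named here because of these values.

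**Figure D3:**
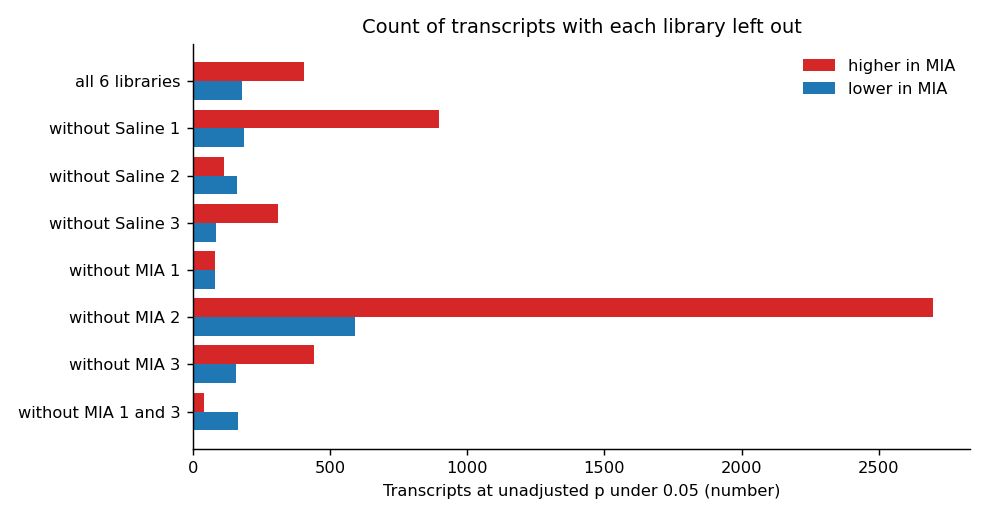
Number of transcripts at an unadjusted p under 0.05 (limma, of 14225), higher (red) or lower (blue) in E17 MIA, with all 6 libraries and with the named libraries left out. Both directions together run from 159 transcripts without E17 MIA 1 to 3291 without E17 MIA 2.

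The transcripts described next are the 10 in each direction with the smallest unadjusted p among those that did not overlap and had a mean of at least 5 TPM in the higher group. All 20 had an adjusted p of 0.724 or 0.754. The highest ranked on the upper side was *Ift74*, a subunit of the intraflagellar transport complex that builds cilia, at 9.27, 7.04 and 6.69 TPM in Saline and 16.3, 9.60 and 15.8 TPM in MIA (log2 fold change 0.76, SE 0.20, 95% interval 0.34 to 1.18). *Clec3b*, the plasminogen-binding protein tetranectin, was at 4.69, 1.98 and 2.48 TPM in Saline and 11.6, 5.18 and 7.14 TPM in MIA (log2 fold change 1.14, SE 0.34). Both were well above Saline in E17 MIA 1 and E17 MIA 3 and only just above it in E17 MIA 2.

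Of the other 8, 3 encode zinc finger proteins. *Zfp605* was at 3.47 to 3.67 TPM in Saline and at 11.5, 4.22 and 7.34 TPM in MIA, *Zfp961* was at 8.37 to 10.3 TPM in Saline and 11.7 to 19.6 TPM in MIA, and *Zfp40* was at 9.38 to 12.6 TPM in Saline and 12.8 to 24.7 TPM in MIA. *Xylt2*, which starts the sugar chains of proteoglycans, had the narrowest spread of the 10. It was at 36.3, 34.6 and 34.5 TPM in Saline and 49.8, 41.6 and 46.1 TPM in MIA (log2 fold change 0.37, SE 0.12). *Dtwd1*, a tRNA-modifying enzyme, was at 7.65 to 9.0 TPM in Saline and 10.7 to 14.2 TPM in MIA. *Tmem80*, a membrane protein of the ciliary base, was measured here on a non-coding RefSeq record, at 4.23 to 6.57 TPM in Saline and 8.69 to 15.7 TPM in MIA. *AA465934*, a non-coding transcript, was at 1.63 to 5.76 TPM in Saline and 7.18 to 17.2 TPM in MIA.

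The last of the 10 was *Mir7035*, the only one of them in which E17 MIA 2 was the highest library. It was listed at 0 in all 3 Saline libraries and at 2.91, 28.5 and 5.24 TPM in E17 MIA 1, 2 and 3. The record is a microRNA hairpin of 82 bases at chr5:136105522-136105603 on the plus strand (GRCm38). It lies inside the gene *Rasa4*, a Ras GTPase-activating protein, in an exon only of a transcript that keeps an intron and otherwise in an intron of *Rasa4*. A library of poly(A) RNA read without strand does not measure mature microRNAs, and reads of a kept *Rasa4* intron and of the hairpin cannot be told apart. *Rasa4* itself was at 7.97, 8.93 and 8.99 TPM in Saline and 5.49, 10.3 and 6.19 TPM in MIA. On a feature this short, 1 read was worth 2.62 to 2.92 TPM in the MIA libraries, so the 3 values stand for an estimated 0.996, 9.99 and 2.0 reads. The 2 mature sequences of the hairpin, from RefSeq, are shown because they are what the record stands for, with the seed (bases 2 to 8) in capitals.
mmu-miR-7035-5p: gGCUGGGAgaguggcucagaa
mmu-miR-7035-3p: uCUGAGCCgcugucccugcag

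On the lower side, *Cd14*, the coreceptor that hands lipopolysaccharide to TLR4, was at 642, 566 and 654 TPM in Saline and 302, 498 and 318 TPM in MIA (log2 fold change -0.77, SE 0.27). *C3ar1*, the receptor of the complement fragment C3a, was at 786, 762 and 785 TPM in Saline and 489.8, 706 and 537 TPM in MIA (log2 fold change -0.45, SE 0.16). *Map2k3*, a kinase of the p38 stress pathway, was at 283, 196 and 256 TPM in Saline and 132, 170.3 and 189 TPM in MIA. In *Cd14* and *C3ar1* the Saline litters lay close together and E17 MIA 1 and E17 MIA 3 far below them.

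*Arih2*, a ubiquitin ligase of the RBR family, had the smallest unadjusted p of the 20. It was at 194, 145 and 202 TPM in Saline and 119, 138 and 132 TPM in MIA (log2 fold change -0.46, SE 0.10, 95% interval -0.68 to -0.25), with E17 Saline 2 next to the MIA libraries. *Ube2f*, a NEDD8-conjugating enzyme, was at 124, 109 and 115 TPM in Saline and 81.3, 104 and 84.9 TPM in MIA. *Ctsc*, the lysosomal protease that activates granzymes and neutrophil proteases, was at 177, 161 and 198 TPM in Saline and 104, 160.3 and 110.5 TPM in MIA, so that E17 MIA 2 lay under 1 TPM below the lowest Saline library. The other members were *AI607873*, a gene of the interferon-inducible HIN-200 family (141 to 173 TPM in Saline, 88.6 to 124 TPM in MIA), *Rrbp1*, a ribosome-binding protein of the endoplasmic reticulum (8.72 to 9.92 TPM in Saline, 4.79 to 7.56 TPM in MIA), *Fam83g* (3.52 to 8.61 TPM in Saline, 2.20 to 3.28 TPM in MIA) and *Cd80*.

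**Figure D4:**
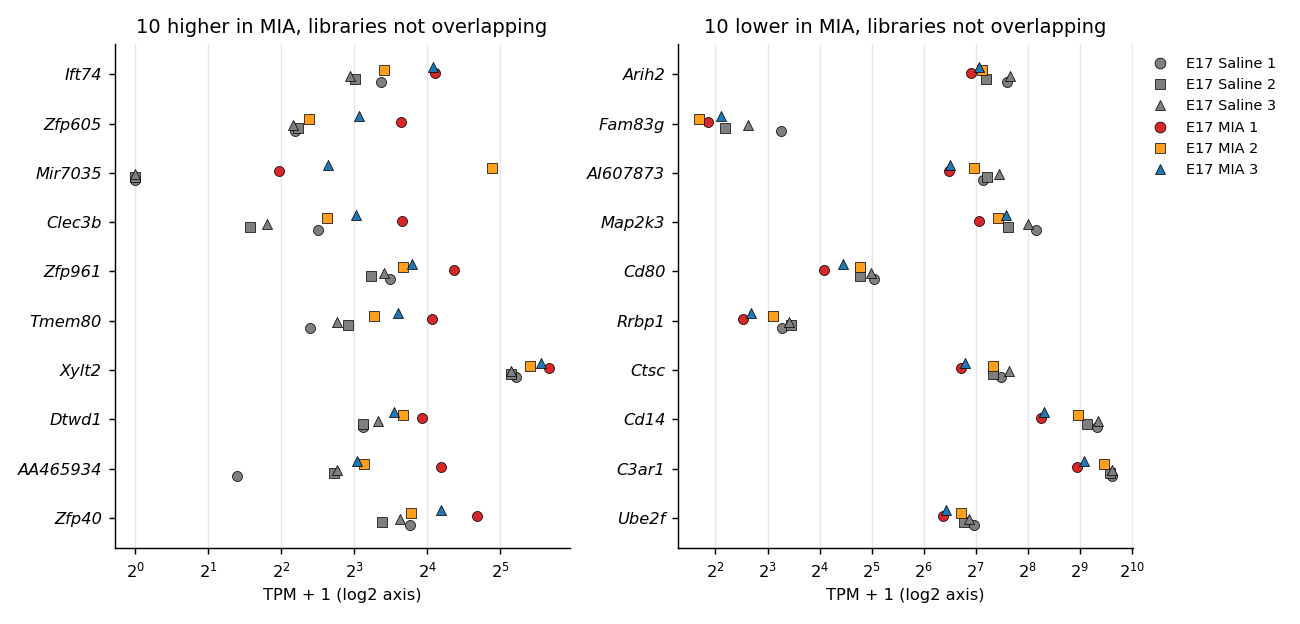
TPM + 1 of the 10 transcripts higher (left) and the 10 lower (right) in E17 MIA with the smallest unadjusted p among those whose libraries did not overlap (log2 axis, 1 point per library, grey for Saline). In most of them E17 MIA 1 (red) and E17 MIA 3 (blue) lie farther from Saline and E17 MIA 2 (orange) nearest to it. *Mir7035* is an exception, at 28.5 TPM in E17 MIA 2. In *Dtwd1*, *AA465934*, *Fam83g* and *Map2k3* E17 MIA 3 is the MIA library nearest to Saline.

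Because microglial RNA itself was lower in E17 MIA 1 and E17 MIA 3, the lower genes were also expressed per 100 TPM of the microglia list, a scale chosen after these sums were seen. On this scale 52 of 14225 transcripts (0.366%) were lower in every MIA library than in every Saline library, against 326 on the TPM scale. *Cd14* was among the 52, at 1.54, 1.06 and 1.32 in Saline and 1.02, 0.977 and 0.863 in MIA, as was *Rrbp1*. *C3ar1* overlapped, at 1.88, 1.44 and 1.58 in Saline and 1.65, 1.39 and 1.46 in MIA. It was 1 of 8 among the 10 lower transcripts that overlapped on this scale. Of the 10 higher ones 6 overlapped, while over all transcripts 651 (4.58%) were higher in every MIA library. A limma fit to values scaled by the microglia list put 1207 transcripts under an unadjusted p of 0.05, 1194 of them higher and 13 lower in MIA, with a median log2 fold change of all transcripts of 0.39.

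Of the 36 transcripts of the cytokine and inflammation list, 31 had a lower and 5 a higher mean of log2 values in MIA, with a median log2 fold change of -0.32 against 0.10 over all transcripts. At an unadjusted p under 0.05, 7 were lower (19.4%) and 0 higher, against 1.26% lower over all transcripts, and 0 passed adjustment. *Ccl2*, the chemokine that draws monocytes, was at 350.2, 398 and 433 TPM in Saline and 187, 340.4 and 182 TPM in MIA (log2 fold change -0.79, SE 0.29). *Nlrp3*, the sensor of the inflammasome, was at 666, 527 and 637 TPM in Saline and 327, 460.5 and 449 TPM in MIA (log2 fold change -0.57, SE 0.22). *Il17ra*, the receptor chain for IL-17A, was at 131, 97.0 and 118 TPM in Saline and 63.3, 93.0 and 92.7 TPM in MIA. *Il1rn*, the natural antagonist of the IL-1 receptor, was low in all libraries, at 1.99 to 2.98 TPM in Saline and 0.190 to 1.98 TPM in MIA.

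The list as a whole followed E17 MIA 1 and E17 MIA 3. Its sum was 12244, 12762 and 12241 TPM in Saline and 7051, 12962 and 8533 TPM in MIA, so E17 MIA 2 was the highest of all 6 and the other MIA libraries the lowest. Without E17 MIA 1 the median log2 fold change was -0.14 and 0 of 36 were under an unadjusted p of 0.05, and without E17 MIA 1 and E17 MIA 3 the median was 0.03. Without E17 MIA 2, 19 were lower at an unadjusted p under 0.05, as were 591 of all 14225 transcripts. Per 100 TPM of the microglia list the sum was 29.3, 24.0 and 24.6 in Saline and 23.7, 25.4 and 23.1 in MIA. On that scale *Ccl2* and *Il1rn* still did not overlap between the groups, whereas *Nlrp3* and *Il17ra* did.

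Complement, antigen presentation and phagocyte lists had lower medians in TPM and sums that overlapped or nearly met relative to the microglia list. The 16 complement and clearance transcripts had a median log2 fold change of -0.26, and their sum per 100 TPM of the microglia list was 49.3 to 49.7 in Saline and 48.0 to 49.0 in MIA. *Gas6*, a bridge between dying cells and their receptors, was at 899, 1148 and 1017 TPM in Saline and 684, 1075 and 784 TPM in MIA. In *Gas6* E17 MIA 2 was within the Saline range. Genes of disease-associated and amoeboid microglia (19 transcripts) had a median of -0.34, and their sum per 100 TPM of the microglia list was 50.8 to 54.4 in Saline and 49.6 to 53.5 in MIA. With E17 MIA 2 as the only MIA library the direction turned, with medians of 0.07 for complement, 0.12 for antigen presentation and 0.08 for the disease-associated list, and without E17 MIA 1 they were -0.15, -0.06 and -0.21. In the last list *Itgax*, the integrin CD11C, was at 48.2, 62.6 and 59.1 TPM in Saline and 33.0, 55.3 and 38.1 TPM in MIA.

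Of 16 antigen presentation transcripts, 2 were lower at an unadjusted p under 0.05 (12.5%, against 1.26% lower over all transcripts), both of them costimulatory ligands of T cells. Without E17 MIA 1 there were 0, and the median log2 fold change went from -0.28 to -0.06. *Cd80* was at 32.2, 26.5 and 30.6 TPM in Saline and 15.9, 26.4 and 20.8 TPM in MIA (log2 fold change -0.50, SE 0.16). *Cd86* was at 285, 306 and 296 TPM in Saline and 174, 320.5 and 204 TPM in MIA (log2 fold change -0.39, SE 0.18), with E17 MIA 2 the highest of the 6. The class I heavy chain *H2-K1* was at 928, 1017 and 1028 TPM in Saline and 561, 1019 and 785 TPM in MIA. *H2-D1*, another class I heavy chain, was at 273, 288 and 299 TPM in Saline and 186, 278 and 237 TPM in MIA. The H2 class I genes are near-identical copies, so reads may have been split between them.

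Genes of the interferon response, the program that poly(I:C) itself switches on, were split between the directions at E17 in TPM. Of 43 transcripts 23 were higher and 20 lower in MIA, with a median log2 fold change of 0.01. At an unadjusted p under 0.05, 0 were higher and 2 were lower (4.65%, against 4.11% over all transcripts) and 0 passed adjustment. The split moved with the scaling and the litter: 13 were higher and 30 lower with median-ratio scaling (median -0.10), 10 and 33 with quantile normalization, 38 and 5 scaled to the microglia list (median 0.26, against 0.39 over all transcripts), 33 and 10 without E17 MIA 1, and 7 and 36 without E17 MIA 3. Both lower ones were minor transcripts of *Irf9*, the DNA-binding subunit of the interferon-stimulated complex, at 1.41 to 1.80 and 1.26 to 1.77 TPM in Saline and 0.660 to 1.10 and 0.20 to 0.820 TPM in MIA. *Cxcl10*, an interferon-induced chemokine, was at 368, 391 and 341 TPM in Saline and 168, 336 and 291 TPM in MIA (log2 fold change -0.52, SE 0.32), without overlap. Relative to microglial RNA, *Cxcl10* overlapped between the groups. The sum of the list was 1963, 2056 and 2175 TPM in Saline and 1457, 1997 and 2329 TPM in MIA, lowest in E17 MIA 1 and highest in E17 MIA 3.

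Cell cycle sums overlapped between the groups in TPM. Of 30 transcripts, 0 were under an unadjusted p of 0.05 by limma, with 0 passing adjustment, and their sum was 2925, 3241 and 3301 TPM in Saline and 3133, 3082 and 2872 TPM in MIA. *Cdt1*, which licenses replication origins, was at 102, 103 and 117 TPM in Saline and 82.3, 83.4 and 78.4 TPM in MIA (log2 fold change -0.40, 95% interval -0.89 to 0.09). The spindle protein gene *Nusap1* was at 2.51 to 3.33 TPM in Saline and 3.48 to 5.24 TPM in MIA. These 2 did not overlap in TPM and lay in opposite directions. Relative to microglial RNA, *Cdt1* overlapped and *Nusap1* stayed higher in each MIA library. Scaled to the microglia list 28 of the 30 were higher and 2 lower, with a median of 0.27 against 0.39 over all transcripts. The sum per 100 TPM of that list was 7.01, 6.10 and 6.64 in Saline and 10.5, 6.05 and 7.79 in MIA.

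Immediate early genes rise within minutes of handling or of dissociation. In TPM they gave 1 of 31 transcripts under an unadjusted p of 0.05 (3.23%, against 4.11% over all transcripts). Scaled to the microglia list, 6 of the 31 were higher at that threshold (19.4%), as were 1194 of all 14225 transcripts. The 1 in TPM was *Trib1*, a pseudokinase that steers protein breakdown, at 429.7, 300.2 and 385 TPM in Saline and 255, 251 and 321 TPM in MIA. *Fos*, the AP-1 subunit, was at 2543, 2197 and 1928 TPM in Saline and 3137, 2599 and 2823 TPM in MIA, higher in each MIA library (log2 fold change 0.36, 95% interval -0.17 to 0.90). Relative to microglial RNA, *Fos* overlapped between the groups. Of 17 hypoxia and glycolysis transcripts, 1 was higher at that threshold (5.88%, against 2.85% higher over all transcripts). It was *Adm*, the vasodilator adrenomedullin, at 38.5, 12.7 and 13.3 TPM in Saline and 42.9, 19.8 and 64.8 TPM in MIA, highest in E17 MIA 3 as was the vessel list.

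Blood and border cells did not follow a single pattern. The 14 neutrophil and monocyte transcripts summed to 1035, 1173 and 1340 TPM in Saline and 454, 1804 and 583 TPM in MIA, so E17 MIA 2 was the highest and the other MIA libraries the lowest. *Ngp*, a neutrophil granule protein, was at 144, 158 and 199.8 TPM in Saline and 44.4, 302 and 71.8 TPM in MIA. All 10 border macrophage transcripts had a lower mean in MIA (median log2 fold change -0.37), but the median was -0.08 without E17 MIA 3 and 0.18 with E17 MIA 2 as the only MIA library. Per 100 TPM of the microglia list their sum was 3.87, 4.17 and 3.79 in Saline and 4.79, 4.26 and 3.01 in MIA. *Cbr2*, a carbonyl reductase of perivascular and meningeal macrophages, was at 21.3, 25.7 and 22.8 TPM in Saline and 12.4, 19.7 and 14.9 TPM in MIA (log2 fold change -0.56, SE 0.22), and unlike the sum it was lower in each MIA library per 100 TPM of the microglia list. *Pf4*, a chemokine shared by border macrophages and platelets, was at 379, 488 and 409 TPM in Saline and 283, 504 and 178 TPM in MIA.

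The study drew up a list of 40 genes of cellular protrusion and neurite growth from these same samples, so its direction is no independent evidence. In other E17 brains, the study reported more IBA1-positive cells with *Ctnnd2*, *Ncam2*, *Ptn* and *Wnt5a* RNA in MIA by in situ hybridization. It did not list *Ntn1*, also probed, among them. By quantitative PCR of sorted E17 microglia it reported higher *Ncam2* and *Wnt5a* in MIA. Its genes had 52 transcripts here, of which 43 were higher and 9 lower in MIA (median log2 fold change 0.53). At an unadjusted p under 0.05, 12 were higher and 4 lower (30.8%, against 4.11% over all transcripts), with 0 passing adjustment. Without E17 MIA 1 there were 1 higher and 1 lower, and without E17 MIA 1 and E17 MIA 3 there were 0 higher and 1 lower with a median of -0.07. There were 33 higher without E17 MIA 2 and 3 higher without E17 Saline 2. Over all 14225 transcripts, the higher counts were 80 without E17 MIA 1, 2700 without E17 MIA 2 and 113 without E17 Saline 2. Among the 12 higher transcripts, E17 MIA 1 was the highest library in 8 and E17 MIA 3 in 4, E17 MIA 2 lay inside the Saline range in 8, and 6 were under 5 TPM in both groups. By library, the median difference of the 52 transcripts from the Saline mean was 0.98 in E17 MIA 1, -0.07 in E17 MIA 2 and 0.44 in E17 MIA 3. The same figures were 2.14, -0.28 and -0.27 for the neuron list and 2.11, -0.30 and 0.46 for the progenitor list. With the level of the neuron list as a covariate in the fit, the protrusion list had a median log2 fold change of 0.36, with 42 higher and 10 lower, of which 13 and 4 were under an unadjusted p of 0.05. The covariate had 1 slope per transcript, shared by all 30 libraries. In that fit the neuron list itself kept a median of 0.10, with 22 higher and 9 lower, so the neuronal difference was not fully removed. The median was 0.27 for the progenitor, 0.53 for the choroid plexus, 0.35 for the endothelial and pericyte and 0.27 for the meningeal fibroblast list. It was 0.31 for the ciliated cell list, -0.01 for the astrocyte and oligodendrocyte lineage lists and 0.05 over all transcripts. Other-cell RNA beyond neurons was not adjusted for.

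Members among the smallest unadjusted p were of low level, as 2 of them show. *Limk1*, the kinase that stabilises actin by inactivating cofilin, was at 0.180 to 0.520 TPM in Saline and 0.640 to 1.17 TPM in MIA on a non-coding record. *Agtr2*, the type 2 angiotensin receptor, ran the other way, at 0.960, 1.29 and 0.940 TPM in Saline and 0.660, 0 and 0.300 TPM in MIA.

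*Ptn*, pleiotrophin, a heparin-binding growth factor for neurites, was at 328, 140.1 and 227 TPM in Saline and 796, 169 and 438 TPM in MIA (log2 fold change 0.83, SE 0.51, 95% interval -0.22 to 1.87). *Ntn1*, the axon guidance cue netrin 1, was at 32.3, 12.9 and 17.2 TPM in Saline and 62.1, 13.2 and 48.5 TPM in MIA (log2 fold change 0.80, SE 0.42). *Ntrk2*, the BDNF receptor, was at 13.9, 5.13 and 8.85 TPM in Saline and 39.8, 7.91 and 23.1 TPM in MIA on its main transcript (log2 fold change 1.09, SE 0.57). All 3 were high in E17 MIA 1 and E17 MIA 3, and in E17 MIA 2 lay between E17 Saline 2 and E17 Saline 3.

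*Ctnnd2*, δ-catenin of neuronal junctions, followed E17 MIA 1 alone, at 13.8, 6.55 and 12.7 TPM in Saline and 54.8, 9.59 and 14.4 TPM in MIA (log2 fold change 0.86, SE 0.53). *Wnt5a*, a non-canonical WNT ligand, was at 1.36, 0.750 and 0.770 TPM in Saline and 2.69, 1.07 and 2.12 TPM in MIA (log2 fold change 0.57, SE 0.28). *Ncam2*, a neural adhesion molecule, was at 0.770, 0.250 and 0.940 TPM in Saline and 4.35, 1.05 and 2.53 TPM in MIA on its more abundant transcript (log2 fold change 1.06, SE 0.53), and did not overlap. *Plau*, the urokinase plasminogen activator, ran against the rest. It was at 478, 319.9 and 328 TPM in Saline and 204, 275 and 239 TPM in MIA (log2 fold change -0.63, SE 0.26), below Saline in every MIA library, and overlapped per 100 TPM of the microglia list. With E17 MIA 2 as the only MIA library, the log2 fold changes were -0.37 for *Ptn*, -0.52 for *Ntn1* and -0.12 for *Ctnnd2*.

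**Figure D5:**
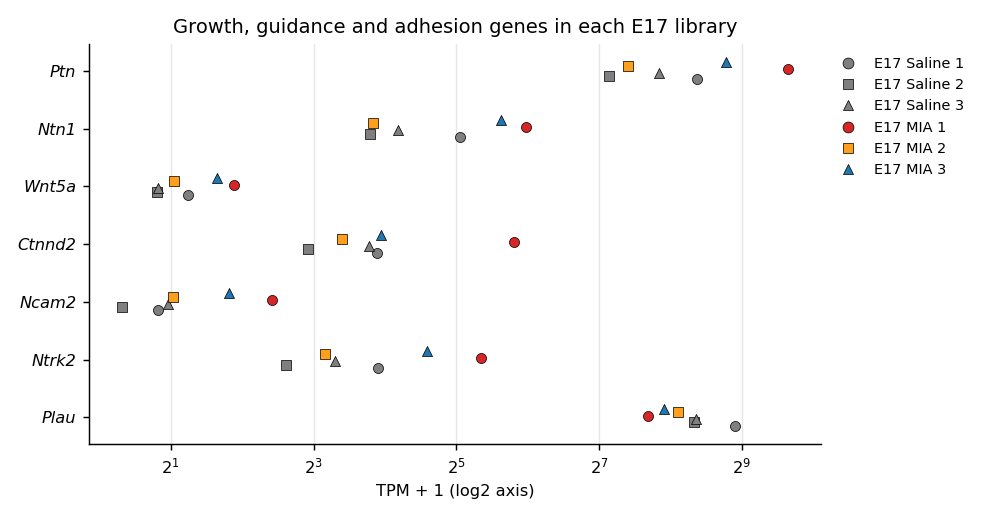
TPM + 1 of 7 growth, guidance and adhesion genes in each E17 library (log2 axis, 1 point per library, grey for Saline; the more abundant transcript where a gene had several). *Ptn*, *Ntn1*, *Ctnnd2* and *Ntrk2* are highest in E17 MIA 1 (red), in these 4 E17 MIA 2 (orange) lies among the Saline points, and *Plau* is lower in all 3 MIA libraries.

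Secreted growth and guidance factors on a wider list of 28 transcripts gave 1 higher and 2 lower under an unadjusted p of 0.05 (10.7%, against 4.11% over all transcripts), 0 of them without E17 MIA 1, and their sum was 2843 to 3143 TPM in Saline and 2787 to 2893 TPM in MIA. *Cxcl12*, a chemokine of meninges and vessels that guides migrating neurons, was at 14.6, 12.7 and 9.54 TPM in Saline and 41.7, 11.4 and 28.4 TPM in MIA (log2 fold change 0.93, SE 0.39). *Areg*, the EGF receptor ligand amphiregulin, was at 3.30, 4.86 and 3.69 TPM in Saline and 1.77, 2.5 and 1.24 TPM in MIA (log2 fold change -0.81, SE 0.36). *Cxcl12* was thus high in the 2 litters with more progenitor and meningeal RNA, and *Areg* low in all 3.

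The E17 difference was also set against the P7 difference, 3 MIA against 3 Saline libraries a week after birth, in the same fit. The test of the difference between the 2 ages gave 0 transcripts under an adjusted p of 0.05 by limma and 275 (1.93%) at an unadjusted p under 0.05. P7, P20 and P60 had 335, 457 and 256 transcripts under an unadjusted p of 0.05 between MIA and Saline, against 585 at E17, and none had any after adjustment. Of the genes above, *Cd14* had a log2 fold change of -0.16 at P7, *C3ar1* of -0.08, *Ccl2* of -0.23 and *Ptn* of 0.03. At P20 the values were -0.23, -0.25, -0.17 and -0.16 in the same order. At P60 on control chow they were -0.16, -0.35, -0.83 and 0.24. Libraries of both groups also stood apart at P7. P7 MIA 3 was over 1 log2 unit above the other P7 libraries in 278 transcripts and below them in 31. After median-ratio scaling these counts were 90 and 51. P7 Saline 1 was above the others in 37 and below them in 88, or 42 and 79 after that scaling.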

How the data were processed

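The deposited table holds TPM values per RefSeq transcript, computed by the authors from poly(A), unstranded, 40-base single-end reads. The submitters' processing notes name mm10 and featureCounts. The authors kept transcripts above a CPM minimum in at least 3 of the 30 libraries. The TPM formula and the read totals are not given in the sources used here. Gene members, lists and tests were chosen with earlier results of these data known.

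TPM was taken as log2(TPM + 1), and limma 3.58.1 (R 4.3.3) was fitted to the 10 groups of 3 libraries with a mean-variance trend, so that all groups share 1 estimate of spread. Its p-values were adjusted by Benjamini-Hochberg over 14225 transcripts. A fold change on this scale understates the change of transcripts near 1 TPM. The code was tested on simulated data. With counts absent, no count test was run.

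Named transcripts were the 10 in each direction with the smallest unadjusted p among those that did not overlap and reached a mean of 5 TPM in the higher group, 7 protrusion genes the study singled out or measured otherwise, up to 4 per list by unadjusted p, and up to 5 per library by distance from the other 5. Some of these are not reported here. The 28 lists hold 3 to 52 transcripts. Depth was estimated from transcript lengths in GENCODE (GRCm38) for 98.5% of transcripts. Low values lay within 0.2 of a whole read in 74.0% to 76.4% of cases, where 40% is expected by chance, so read numbers are approximate. The labels give no batch. The labels also do not say whether same-numbered libraries belong together. The alternatives were 0.1 in place of 1 as the added constant, only transcripts averaging 1 TPM or more, median-ratio and quantile scaling, scaling to the microglia list, a replicate block, a fit of only the compared groups, no trend, the neuron list as a covariate, and leaving out libraries.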

Additional observations from a re-analysis of the deposited data

Results flagged for a closer look

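Among the named transcripts, 3 had E17 libraries that did not overlap and libraries of another age that did not overlap in the opposite direction. The difference between the ages was not tested for P20 and P60. *Xylt2* had a log2 fold change of 0.37 at E17 and -0.17 at P60. *AA465934* had 1.16 at E17 and -1.04 at P20. The non-coding record of *Limk1* had 0.43 at E17 and -0.21 at P20, at under 2 TPM in every E17 library.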

How the results depend on the processing

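No transcript passed adjustment in the fit of all 6 libraries or under the other settings with all 6 libraries. Leaving out 1 library gave 0 to 1 transcripts after adjustment and 159 to 3291 at an unadjusted p under 0.05. The number at an unadjusted p under 0.05 was 580 with 0.1 added in place of 1, 507 with a mean TPM of at least 1, 520 with median-ratio scaling, 547 with quantile normalization (207 higher, 340 lower), 593 without the trend, 442 with the neuron list as a covariate and 266 with only the compared groups in the fit. The replicate number as a block gave 963 (720 higher, 243 lower) and 0 after adjustment. The correlations of the deviations of same-numbered libraries were 0.40, 0.66 and 0.0003. They differed between the numbers and rest on 3 litters a group, so they cannot decide whether the numbers pair the litters. The 2 settings chosen after seeing the data gave 201 without E17 MIA 1 and E17 MIA 3 and 1207 scaled to the microglia list. The difference in microglial marker share ranged from -2.69 to 0.032 percentage points with 1 library left out, and was 0.032 without E17 MIA 1. The E17 to P7 difference gave 0 after adjustment in every setting. Of the named log2 fold changes, *H2-D1* (0.015) and *Gas6* (0.039) turned higher when scaled to the microglia list. Without E17 MIA 1 and E17 MIA 3, values turned lower for *Ptn* (-0.37), *Ntrk2* (-0.12 and -0.11), *Ntn1* (-0.52), *Ncam2* (-0.036, minor transcript), *Ctnnd2* (-0.12), *Slc1a3* (-0.23), *Ptprz1* (-0.32), *Cspg4* (-0.029), *Olig1* (-0.25), *Rgs5* (-0.040), *Clic6* (-0.63), *Sostdc1* (-0.64), *Spag6l* (-0.25) and *Cxcl12* (-0.075), and higher for *C1qc* (0.049), *Fcrls* (0.083), *Pf4* (0.25), *Ccr2* (0.30), *Ngp* (0.86), *Cd86* (0.12), *H2-K1* (0.041), *Ctsb* (0.083) and *Gas6* (0.081). With 3 litters per group and a spread of 0.28 between MIA litters, small differences were not detectable.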

Other observations

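E17 Saline 2 was the highest library in *Rmrp* and *Rpph1*, transcripts of RNA polymerase III, and in *Rn45s*, of ribosomal RNA. A poly(A) library should hold little of such RNA. These genes were picked by their distance from the other libraries, and other transcripts of these classes were not counted. *Rmrp*, the RNA of the ribonuclease that processes ribosomal RNA, was at 6.15, 89.0 and 17.1 TPM in E17 Saline 1, 2 and 3 and at 18.2, 9.35 and 10.2 TPM in E17 MIA 1, 2 and 3. *Rpph1*, the RNA of ribonuclease P, was at 11.1, 49.1 and 15.2 TPM in Saline and 11.0, 7.19 and 7.27 TPM in MIA. *Rn45s*, the ribosomal RNA precursor, was at 844, 1864 and 882 TPM in Saline and 1077, 526 and 647 TPM in MIA. E17 Saline 1 was the highest, by less than 1 log2 unit, in *Mir155hg*, the host transcript of the inflammatory microRNA miR-155, at 13.1, 5.89 and 6.91 TPM in Saline and 3.97, 3.52 and 4.42 TPM in MIA.

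Oligodendrocyte lineage transcripts followed both E17 MIA 1 and E17 MIA 3. *Olig1*, a transcription factor of the lineage and of ventral progenitors, was at 64.1, 30.01 and 56.3 TPM in Saline and 217, 40.04 and 105 TPM in MIA. *Cspg4*, the proteoglycan NG2 of oligodendrocyte precursors and pericytes, was at 53.2, 21.2 and 30.5 TPM in Saline and 72.5, 32.0 and 87.7 TPM in MIA. *Spag6l*, an axonemal protein of motile cilia, was at 2.31, 1.95 and 2.09 TPM in Saline and 5.42, 1.61 and 8.97 TPM in MIA.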
